A study of Mus musculus with 46 samples.

Results

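The genes described here are 9 adipocyte genes measured in mouse cecum, the blind pouch at the start of the large intestine: Cfd, Adipoq, Retn, Lep, Fabp4, Car3, Plin1, Plin4 and Lipe. They were taken by name, through the RefSeq accession of each array probe, and 10 of the 55681 non-control probes of the array belonged to them. Where a gene had more than 1 probe, the brightest in cecum was used. Of the diets of the study, 4 were put on arrays. Male C57BL/6 mice, single-housed and 12 weeks old at the start, were fed 1 of these for 8 weeks. The diets were a high-fat diet with 45% of its energy from fat (HFD), a low-fat diet with 10% (LFD), and HFD in which 10% of the weight, 5% corn starch and 5% cellulose, was replaced by inulin (HFD + inulin) or by 5% each of inulin esterified with propionate and with butyrate (HFD + inul PB). Cecal RNA of 6 mice on HFD, 5 on LFD, 6 fed HFD + inulin and 5 fed HFD + inul PB was hybridised to 1-colour Agilent arrays, 1 array per mouse, and 6 liver arrays per diet accompanied them. The signal is given as a normalised log2 signal, so that 1 unit is a doubling, and it orders arrays for 1 gene but not genes against each other.

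White adipocytes store triglyceride in a large lipid droplet that is coated by perilipins and emptied by lipases, and they release hormones and other proteins into the blood. Fat of this kind lies in the mesentery and along the outer face of the intestine, so a piece of intestinal wall may carry some of it. How far such fat was trimmed from the cecum is not given in the sources used here. In whole tissue, fewer adipocytes and less RNA per adipocyte cannot be told apart.

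The arrays were those of cecum by their labels. On every cecum array, 7 of 7 epithelial genes were well above background, among them the adhesion protein gene Epcam and the mucin gene Muc2. Their mean signal stayed between 15.47 and 15.87. These genes show intestinal epithelium, and whether some pieces held neighbouring intestine was not tested. Between 48.4% and 55.9% of spots were well above background on each array, and the number of arrays limits the precision. Correlations between cecum arrays ran from 0.951 to 0.989, and no pair of arrays was identical. The arrays lay on 3 slides, slides 2, 5 and 6, each of which held all 4 diets.

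Because the members moved together, the 250 bases before the annotated start are shown for 4 genes that span the range of behaviour, from the adipokines Adipoq and Lep and the droplet coat Plin1 to the lipase Lipe, which departed from the others. The sequences are from RefSeq on GRCm38.p6, at chr16:23146286-23146535 (plus strand), chr6:29059971-29060220 (plus strand), chr7:79732777-79733026 (minus strand) and, for the farther of the 2 Lipe starts, chr7:25395988-25396237 (minus strand). Capitals mark matches, on either strand, to the motifs searched. These were the nuclear receptor half-site (AGGTCA), the C/EBP site (TTNNGCAA), its palindrome (TTGCGCAA), which also fills the C/EBP site, the CCAAT box (CCAAT), the GC box (GGGCGG), the TATA box (TATAAA) and the cAMP response element (TGACGTCA).
Adipoq: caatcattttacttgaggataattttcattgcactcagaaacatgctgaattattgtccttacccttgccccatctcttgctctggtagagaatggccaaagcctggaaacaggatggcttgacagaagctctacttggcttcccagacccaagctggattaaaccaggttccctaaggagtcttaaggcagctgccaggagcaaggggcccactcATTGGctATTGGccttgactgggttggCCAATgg
Lep: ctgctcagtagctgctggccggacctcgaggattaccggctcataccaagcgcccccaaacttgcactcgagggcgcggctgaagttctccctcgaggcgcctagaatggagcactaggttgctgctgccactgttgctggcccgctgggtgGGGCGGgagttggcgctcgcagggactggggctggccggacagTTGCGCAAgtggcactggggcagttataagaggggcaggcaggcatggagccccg
Plin1: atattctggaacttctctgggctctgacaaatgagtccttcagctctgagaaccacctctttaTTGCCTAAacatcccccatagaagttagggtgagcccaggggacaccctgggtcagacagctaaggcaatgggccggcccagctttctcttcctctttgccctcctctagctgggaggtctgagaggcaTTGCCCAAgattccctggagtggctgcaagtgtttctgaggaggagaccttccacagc
Lipe: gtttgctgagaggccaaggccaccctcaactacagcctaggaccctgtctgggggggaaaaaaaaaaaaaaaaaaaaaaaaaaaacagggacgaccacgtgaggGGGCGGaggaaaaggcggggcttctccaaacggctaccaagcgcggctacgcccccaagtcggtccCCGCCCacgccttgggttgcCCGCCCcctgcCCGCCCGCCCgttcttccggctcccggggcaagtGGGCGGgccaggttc

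The letters of the C/EBP site occurred in 9.56% of the 32851 windows of this length in the table. They lay in 2 places in the Plin1 window, at 187 to 180 and at 58 to 51 bases before the start. The Lep window held them as the palindrome, found in 0.164% of windows, at 55 to 48 bases before the start. Adipoq had 3 matches to the CCAAT box (33.8% of windows) and Lipe had 6 to the GC box (32.7%). Of the 7 members with a window, none held the nuclear receptor half-site (14% of windows), the TATA box (12.4%) or the cAMP response element (1.55%), and the windows of Cfd, Retn and the nearer Lipe start held no match at all. GC content was 48.8% for Adipoq, 54.0% for Plin1, 65.6% for Lep and 62.8% for the Lipe window shown, against a median of 52.4%.

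Across diets, the mean signals of 8 of the 9 genes were lowest on HFD + inul PB and highest on HFD, and Lipe was nearly level. Adipoq, the gene used here as the yardstick of adipocyte signal, was well above background on all 6 HFD arrays, 4 of 5 LFD arrays and 4 of 6 HFD + inulin arrays, but on 2 of 5 HFD + inul PB arrays. Of 5 comparisons made in the fit of the 22 cecum arrays, the 1 in which members passed the test was HFD + inul PB against HFD.

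Adipoq encodes adiponectin, a hormone made by adipocytes. On HFD its signal had a lowest value of 9.91, a median of 11.47 and a highest of 14. On HFD + inul PB the 5 arrays read 2.86, 3.88, 2.72, 10.09 and 8.08, and only the last 2 were well above background. HFD + inulin arrays ran from 3.50 through a median of 8.02 to 12.72, with 4 of 6 well above background. The LFD arrays read 11.50, 11.98, 13.05, 2.50 and 11.95. Thus the 3 lowest HFD + inul PB arrays and the fourth LFD array lay far below every HFD array, while 1 HFD + inul PB array, at 10.09, overlapped the HFD range. The mean difference of HFD + inul PB from HFD was -6.21 ± 2.00 (SE) on the log2 scale (limma P = 0.00567, adjusted P = 0.0671; exact permutation P = 0.00433). As 3 of the 5 arrays had no level well above background, its size depends on how background is treated, and it was -4.21 with normexp correction and -4.50 without correction.

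Cfd encodes complement factor D, also called adipsin, a serine protease of the alternative complement pathway that adipocytes secrete. HFD arrays lay between 11.63 and 15.61 with a median of 13.73. The HFD + inul PB arrays read 4.89, 7.18, 3.69, 13.20 and 10.92. LFD arrays read 14.38, 14.77, 15.86, 3.36 and 14.50. Thus 4 LFD arrays lay in or just above the HFD range, and the remaining one was the lowest of the 22. HFD + inulin spanned 4.21 to 15.42 with a median of 11.13, nearly the whole range. HFD + inul PB was lower than HFD by a log2 difference of -5.89 ± 2.31, which did not pass the limma threshold (P = 0.0194, adjusted P = 0.142), although the exact permutation P was 0.00433.

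Retn encodes resistin, in mice an adipocyte hormone. Its signal ran from 8.95 to 13.05 on HFD, with a median of 10.27. On HFD + inul PB the arrays read 5.30, 4.99, 5.07, 9.27 and 7.41, all well above background. The fourth array overlapped the lowest HFD array and the other 4 were below it. The log2 difference was -4.30 ± 1.45 (limma P = 0.00761, adjusted P = 0.0797; exact permutation P = 0.00433), and a second, dimmer Retn probe gave -5.06 (limma P = 0.00652).

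Lep encodes leptin, the adipocyte hormone that reports fat stores to the brain, and was well above background on 8 of the 22 arrays. On HFD it ran from 4.87 to 9.08 with a median of 5.85, and 4 of 6 arrays were well above background. It was not well above background on any of the 5 HFD + inul PB arrays, which read 3.19, 2.86, 2.93, 4.49 and 3.91, all below the lowest HFD array. The dim HFD + inul PB arrays have no measured level. With each set to its lowest signal well above background, Lep was 2.62-fold lower on HFD + inul PB than on HFD. This value holds only for the background subtraction used here and is not a lower bound under other treatments. The HFD mean in it also includes arrays where Lep was not well above background. The fit on the measured values gave -2.80 ± 0.88 from means of 3.48 and 6.28 (limma P = 0.00464, adjusted P = 0.0593; exact permutation P = 0.00433). With normexp correction the difference was -1.03 and no longer passed (limma adjusted P = 0.114), and without correction it was -1.27. Lep was well above background on 2 of 5 LFD and 2 of 6 HFD + inulin arrays, and no fold is given against these diets.

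Fabp4 encodes a cytosolic carrier of fatty acids that is abundant in adipocytes and also made by macrophages and capillary endothelium. It was well above background on all 22 arrays. On HFD it lay between 12.88 and 16.34 with a median of 13.94. The HFD + inul PB arrays read 10.64, 11.03, 10.92, 12.81 and 11.04 and did not overlap the HFD arrays. The log2 difference was -3.05 ± 0.88, an 8.30-fold lower signal that passed both thresholds (limma P = 0.00244, adjusted P = 0.0400; exact permutation P = 0.00433).

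Car3 encodes carbonic anhydrase 3, a cytosolic enzyme abundant in adipocytes, liver and muscle. The HFD range was 11.25 to 15.05 with a median of 12.85. The HFD + inul PB arrays read 7.62, 8.25, 8.02, 11.85 and 9.85, so that only the fourth reached the HFD range. The log2 difference was -4.01 ± 1.35 (limma P = 0.00767, adjusted P = 0.0800; exact permutation P = 0.00649).

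Plin1 encodes perilipin 1, which coats the adipocyte lipid droplet and controls access of lipases to it. On HFD it ran from 7.44 to 10.20 with a median of 8.81. On HFD + inul PB the arrays read 2.26, 2.49, 2.65, 7.66 and 4.83, and only the fourth was well above background. That array overlapped the lowest HFD array. The log2 difference of -5.00 ± 1.5 passed both thresholds (limma P = 0.00335, adjusted P = 0.0486; exact permutation P = 0.00433). With 4 of the 5 arrays not well above background, it too depended on background treatment, and was -2.46 with normexp correction (limma adjusted P = 0.0648) and -2.82 without correction (limma adjusted P = 0.0535).

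Plin4 encodes perilipin 4, a coat of newly forming droplets. Its signal was well above background on all arrays and ran from 11.48 to 13.99 on HFD with a median of 12.04. The HFD + inul PB arrays read 10.87, 10.42, 9.92, 11.44 and 10.39, all below the lowest HFD array, the closest by a narrow margin. The log2 difference was -1.80 ± 0.68, which did not pass the limma threshold (P = 0.0158, adjusted P = 0.125; exact permutation P = 0.00433).

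Lipe encodes hormone-sensitive lipase, which releases fatty acids from stored fat and is made in other tissues too. It ran from 6.68 to 8.78 on HFD with a median of 7.55. On HFD + inul PB it read 7.28, 7.31, 7.60, 7.82 and 7.77, inside the HFD range. The log2 difference was -0.11 ± 0.34 (limma P = 0.751; exact permutation P = 0.768).

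**Figure D1:**
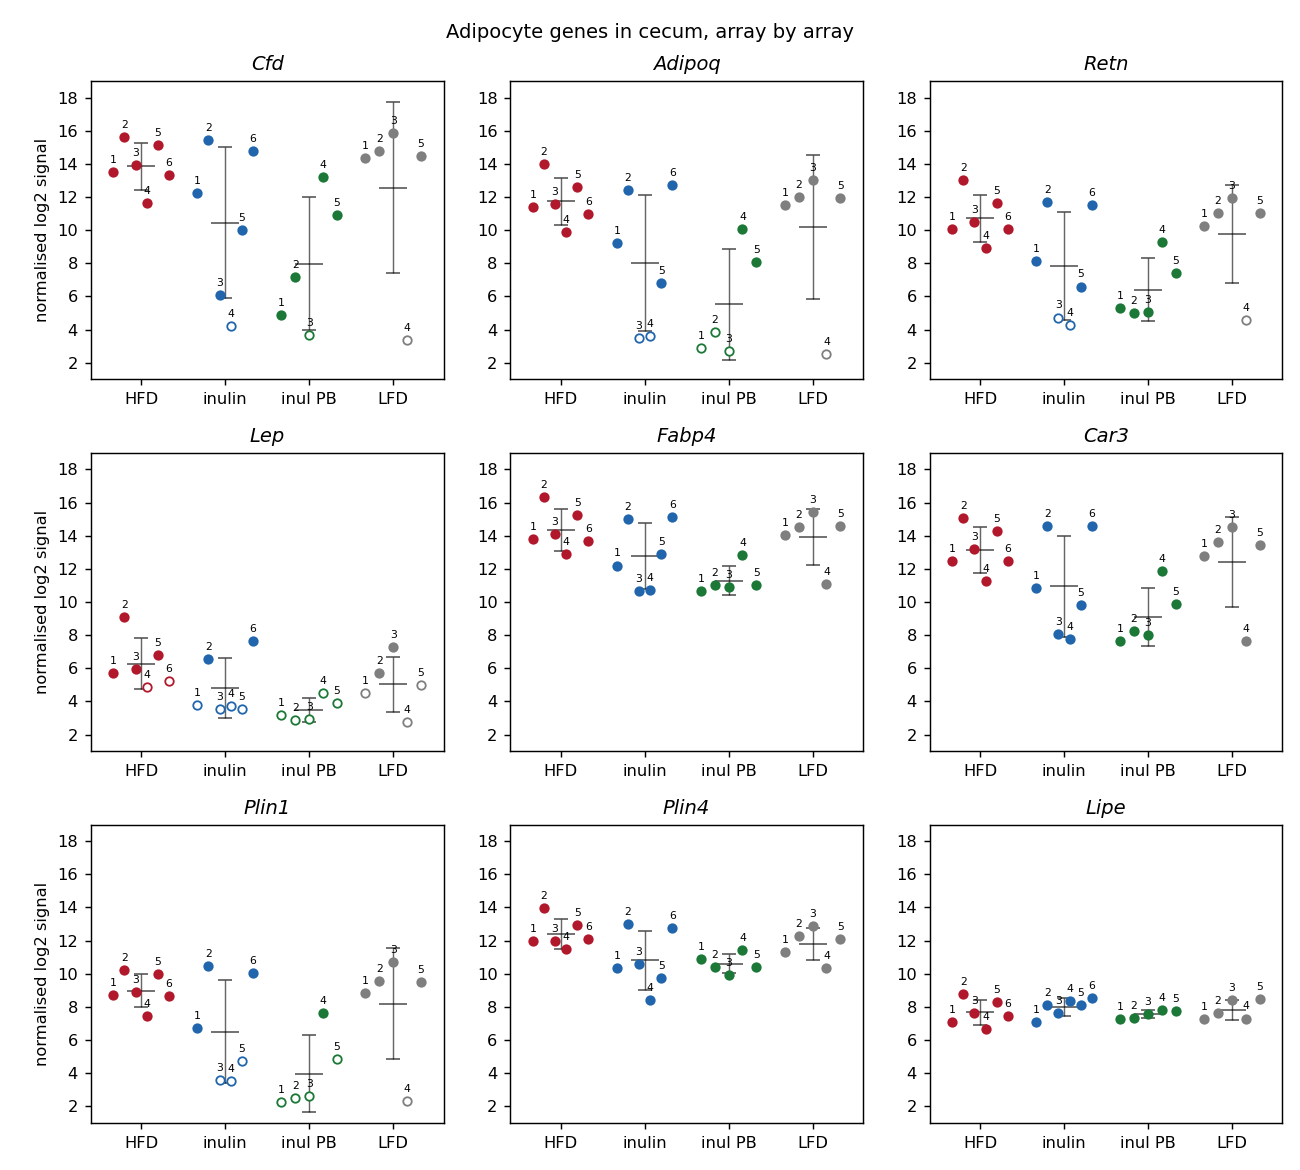
Normalised log2 signal of the 9 adipocyte genes (y axis) on each cecum array, by diet (x axis). Filled points were well above background and open points were not, numbers give the replicate, and bars show the mean ± SD of each diet (6 HFD, 5 LFD, 6 HFD + inulin and 5 HFD + inul PB arrays). Replicate 4 of LFD and replicates 1, 2 and 3 of HFD + inul PB lie at the bottom in most genes, and Lipe stays between 6.68 and 8.78 throughout.

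For HFD + inul PB against HFD, 6 of 9 members (Adipoq, Retn, Lep, Fabp4, Car3 and Plin1) were lower by more than 1.5-fold at P under 0.01, where 2.15% of all probes were. At an adjusted P under 0.05 it was 2 of 9, Fabp4 and Plin1, against 3.51% of all probes. These adjusted calls fell to 0 without any 1 of HFD replicates 1, 2, 3, 5 and 6 or HFD + inul PB replicates 1, 2, 3 and 5, to 1 without HFD replicate 4, HFD + inulin replicate 1 or any LFD array but replicate 4, and rose to 6 without LFD replicate 4. In 3 genes, Fabp4, Lep and Plin4, the groups did not overlap, against 4.22% of all probes in that direction. The median difference over the members was -4.01, and over all probes 0.001. The direction held within slides: 9 members were lower on slide 2 (from -9.32 to -0.65), 8 on slide 5 (-9.10 to 0.43) and 9 on slide 6 (-3.06 to -0.09). The number of calls at 1.5-fold and P under 0.01 also depended on single arrays. It fell from 6 to 2 without HFD replicate 2, to 3 without HFD replicate 5, to 1 without HFD + inul PB replicate 1 or replicate 2, and to 2 without HFD + inul PB replicate 3. Retn and Car3 also lost their calls without HFD replicate 1, 3 or 6, and Car3 without HFD + inul PB replicate 5.

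On plain inulin no member passed. Against HFD, 8 of 9 members were lower on HFD + inulin and Lipe was higher, with a median difference of -2.19, and 0 of 9 passed in limma at either threshold (1.3% and 0.735% of all probes were lower). Plin4 came closest, with a log2 difference of -1.60 ± 0.65 from a mean of 12.41 to 10.81 (limma P = 0.0235; exact permutation P = 0.0714), and was the 1 member at an unadjusted limma P under 0.05. It passed without HFD + inulin replicate 2, at -2.04, or without replicate 6, at -1.99. Adipoq differed by -3.68 ± 1.91 (exact permutation P = 0.0758) and Retn by -2.88 ± 1.38 (exact permutation P = 0.0844). The 6 HFD + inulin arrays were split: replicates 2 and 6 had Adipoq signals of 12.42 and 12.72, inside the HFD range, and replicates 3 and 4 had 3.50 and 3.61, not well above background. Within slides 8 or 9 members were lower on each, by as much as -7.64 on slide 5.

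The differences of LFD from HFD were within the spread between arrays. They ran from -1.54 ± 2.00 for Adipoq to 0.16 ± 0.34 for Lipe, with a median of -0.79, and 0 of 9 passed in limma, at an unadjusted P under 0.05 as well (0.282% of all probes were lower at 1.5-fold and P under 0.01). The direction of 6 genes rested on 1 array. Without LFD replicate 4, Cfd was 1.01 higher on LFD than on HFD, Plin1 0.68, Car3 0.45, Adipoq 0.38, Retn 0.35 and Fabp4 0.30. On slide 5, where LFD had 1 array, replicate 3, all 9 members were higher on LFD, by 1.16 to 3.07. Replicate 3 was among the highest 6 of the 22 arrays in 9 of 9 members. On slides 2 and 6, 8 members were lower on LFD, and of these slides only slide 6 holds replicate 4.

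HFD + inul PB and HFD + inulin are both inulin diets and differ in the propionate and butyrate esters on the inulin. All 9 members were lower on HFD + inul PB, by a median of -1.49, but 0 of 9 passed in limma, and 0 at an unadjusted P under 0.05 (0.336% of all probes were lower at 1.5-fold and P under 0.01). Plin1 differed most, by -2.53 ± 1.5 (exact permutation P = 0.169), and Plin4 by -0.20 ± 0.68. On slide 5, where HFD + inul PB had 1 array, 5 members were lower and 4 higher.

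When the mean of both inulin diets was set against LFD, all 9 members were lower, with a median of -2.37, and 0 of 9 passed in limma (0.884% of all probes were lower). Fabp4 (-1.90 ± 0.78, exact permutation P = 0.0652) and Plin1 (-2.94 ± 1.34, exact permutation P = 0.112) were the 2 members under an unadjusted limma P of 0.05. LFD replicate 4 decided this count. Without it 6 of 9 passed, namely Cfd, Adipoq, Plin1, Fabp4, Retn and Car3, with Adipoq at -5.33 and Plin1 at -4.41. The share of all probes that passed in that fit is not given here, so this count has no background beside it. On slide 6, which holds that array, 8 members were higher on the inulin diets, whereas all 9 were lower on slides 2 and 5. On slide 5 LFD had 1 array.

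The spread of the members within a diet was among the widest on the array. The within-diet SD of Cfd was 3.99 on the log2 scale, and 21 of 55681 probes had a larger one. It was 3.45 for Adipoq, 2.59 for Plin1, 2.49 for Retn, 2.33 for Car3, 1.52 for Fabp4, 1.51 for Lep and 1.18 for Plin4. All 8 genes thus ranked at percentile 97.87 of all probes or above. Lipe, at 0.58, ranked at percentile 75.14, and the median of all probes was 0.33.

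The same arrays were low or high in nearly all members. LFD replicate 4 had the lowest mean rank, 2.89 of 22, and was among the lowest 8 arrays in 9 of 9 genes. HFD + inul PB replicates 1, 3 and 2 followed at 3.78, 4 and 5.11, with HFD + inulin replicate 4 at 5.11 and replicate 3 at 5.44. At the other end, HFD replicate 2 (21.67), LFD replicate 3 (20.44), HFD + inulin replicate 6 (19.33) and HFD replicate 5 (18.78) were among the highest 6 arrays in 9 of 9 genes, and HFD + inulin replicate 2 (19.11) in 8 of 9. Every diet other than HFD therefore had arrays in the lowest 6, and every diet other than HFD + inul PB had arrays in the highest 6.

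**Figure D2:**
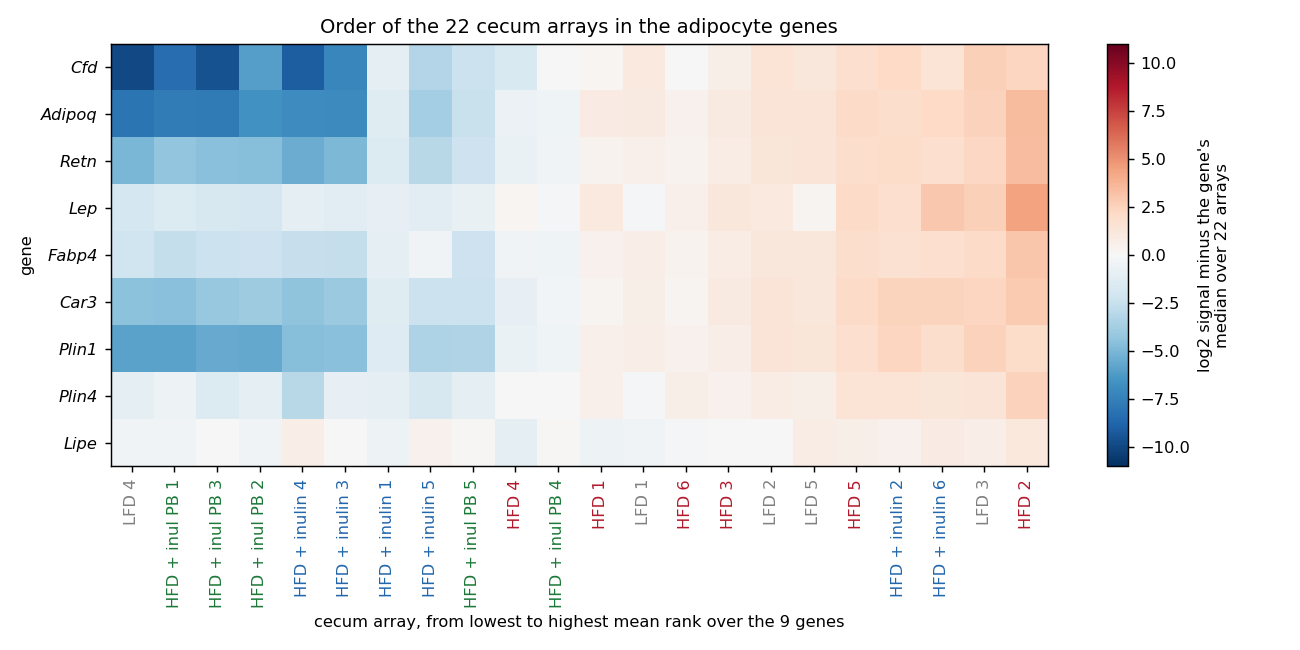
Log2 signal of each member minus its median over the 22 cecum arrays (colour), with genes as rows and arrays as columns from the lowest to the highest mean rank over the 9 genes. The lowest array is LFD replicate 4 (mean rank 2.89) and the highest is HFD replicate 2 (21.67), and the rows of Cfd, Adipoq, Retn, Car3 and Plin1 change colour at the same arrays.

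Deviations from the diet mean followed each other closely between members. The correlation of each gene with the mean of the other 8 over the 22 arrays was 0.995 for Retn and for Car3, 0.980 for Plin1, 0.976 for Adipoq, 0.949 for Fabp4 and 0.942 for Cfd. It was 0.860 for Lep, 0.848 for Plin4 and 0.501 for Lipe. Without LFD replicate 4 and HFD + inulin replicate 6, the arrays farthest from the median, these values were 0.992 for Retn, 0.993 for Car3 and 0.421 for Lipe. The points share their arrays and normalisation, and the values are a description.

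Whether the members kept fixed proportions to each other was read from the log2 ratio of each gene to Adipoq on the same array. On the 16 arrays where both were well above background, Adipoq had an SD of 1.90 while its ratio with Retn had an SD of only 0.26. In the same 16 arrays the ratio SD was 0.45 for Car3 and 0.48 for Cfd. It was 0.41 for Plin1 over 14 arrays and 0.43 for Lep over 8. The ratio was looser for Fabp4, with an SD of 0.89, and for Plin4, with 0.90. Over all 22 arrays Fabp4 did not go below 10.64 and Plin4 not below 8.42. For Lipe the ratio SD was 1.72, close to that of Adipoq itself.

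Per unit of Adipoq, the slope of each gene over the arrays with both above background was 0.91 for Retn, 0.88 for Cfd, 0.87 for Car3 and for Plin1, and 1.28 for Lep over its 8 arrays, where 1 is a change in step. It was 0.65 for Fabp4, 0.56 for Plin4 and 0.14 for Lipe. The Retn ratio on these arrays averaged -1.03 over 6 HFD and -1.06 over 4 LFD arrays, against -0.80 over 4 HFD + inulin and -0.75 over 2 HFD + inul PB arrays. The Cfd ratio averaged 2.13, 2.76, 2.82 and 2.97 in the same order, and the Car3 ratio 1.40, 1.46, 2.16 and 1.76.

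Tested over all arrays with exact permutation, without regard to background, the ratio to Adipoq was higher on HFD + inul PB than on HFD for Retn (difference 1.91, P = 0.00216), Car3 (2.20, P = 0.00216), Lipe (6.10, P = 0.00216), Plin4 (4.40, P = 0.00433), Lep (3.41, P = 0.00649) and Fabp4 (3.16, P = 0.0108), and 0.00216 is the smallest P these groups allow. For Plin1 the difference was 1.21 (exact permutation P = 0.0779) and for Cfd 0.32 (exact permutation P = 0.474). Each ratio difference is the gene's own difference minus that of Adipoq, so these tests are not separate from the differences above. For Lipe, which was nearly level, the ratio restates the Adipoq difference. On 3 of the 5 HFD + inul PB arrays Adipoq was not well above background, and there a ratio is set by the dim Adipoq signal. A gene that fell less than Adipoq then has a higher ratio by construction. With normexp correction the Car3 ratio difference shrank to 0.37 (exact permutation P = 0.0693), that of Retn to 0.97, Fabp4 to 1.30, Plin4 to 2.44 and Lipe to 4.09, while that of Plin1 rose to 1.75 (exact permutation P = 0.00216). On HFD + inulin the ratio of Car3 (1.49, P = 0.00649), Plin1 (1.22, P = 0.0303) and Lipe (4, P = 0.0411) was higher than on HFD in the exact permutation test. These calls were not stable. Under normexp correction the Car3 difference was 0.34 (exact permutation P = 0.0606) and that of Lipe 2.67 (exact permutation P = 0.0519), and that of Retn, 0.81 before (exact permutation P = 0.0714), was 0.59 (exact permutation P = 0.0238). The Lipe call was lost without any 1 of the 6 HFD arrays (exact permutation P from 0.0736 to 0.102), and the Plin1 call without any 1 of HFD replicates 1 to 5 (exact permutation P from 0.0541 to 0.104). On LFD 0 of 8 ratios differed from HFD at P under 0.05, and 32 ratio tests were made in all, unadjusted.

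**Figure D3:**
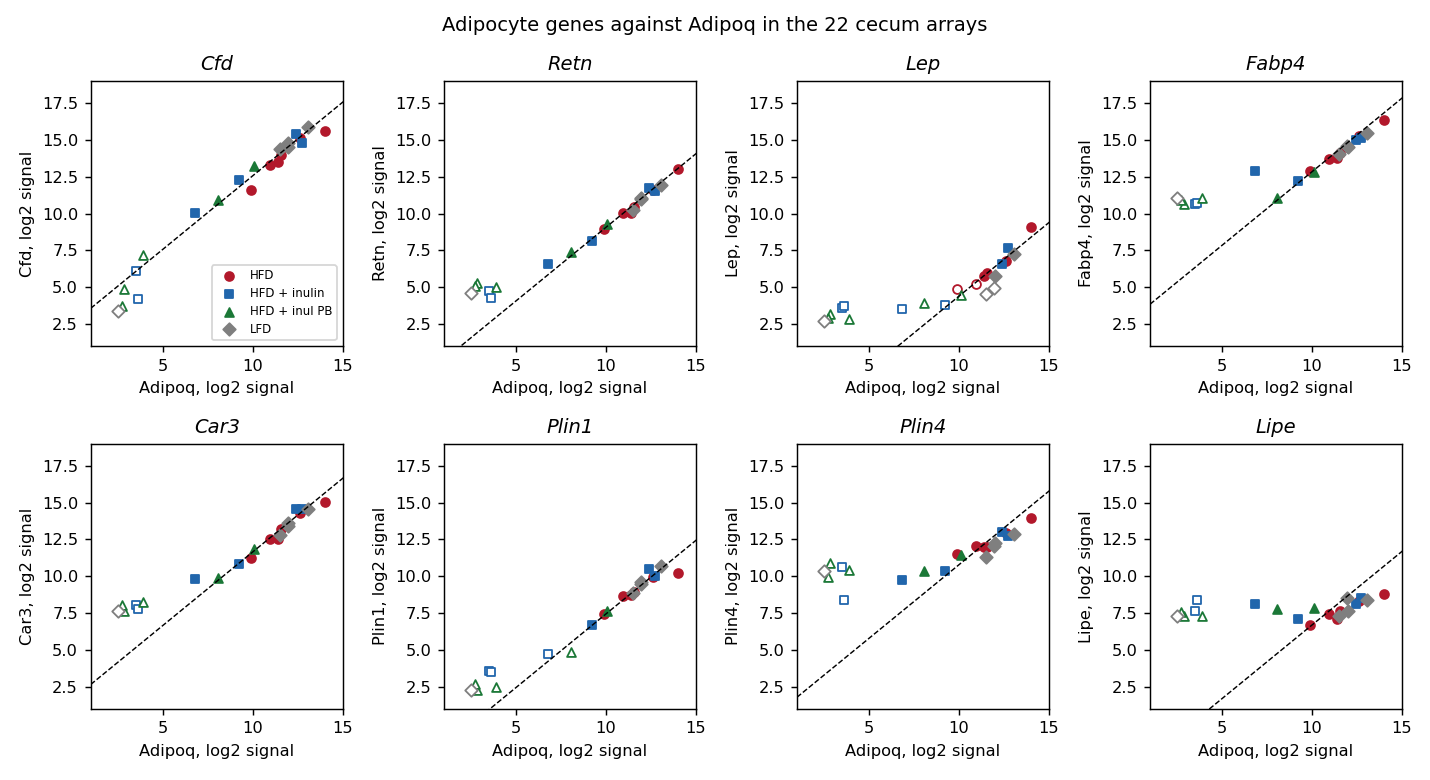
Normalised log2 signal of each of the other 8 members (y axis) against that of Adipoq (x axis) on the 22 cecum arrays, by diet. Filled symbols mark arrays where both genes were well above background, and the dashed line has a slope of 1 through the mean ratio of those arrays. Retn follows the line with an SD of 0.26, Fabp4 and Plin4 level off where Adipoq is low, and Lipe stays nearly flat.

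The genes whose deviations were most like the mean of the members, over the 22 arrays, were Cyp2e1 (r = 0.989), Mrap (0.983), Adig (0.979), Slc7a10 (0.978), Hp (0.974), Trarg1 (0.964), Nnat (0.963), Scd1 (0.959), Amy1 (0.958) and Slc6a13 (0.956). These values describe likeness over arrays and carry no test. Cyp2e1, a cytochrome P450, averaged 10.50 on HFD and 10.02 on LFD, against 7.54 with inulin and 6.39 with inul PB in the HFD, in the order of the members. Hp, which encodes the plasma protein haptoglobin, averaged 10.54, 9.69, 8.22 and 6.95 on the same diets.

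Of 14 other adipocyte genes, 0 were lower on HFD + inul PB than on HFD at an adjusted P under 0.05 in limma (3.51% of all probes). At 1.5-fold and P under 0.01, 4 were lower (2.15% of all probes). These were Nnat (-3.18 ± 1.05), Trarg1, a regulator of the glucose transporter GLUT4 (-3.12 ± 0.98), Adig, which encodes adipogenin (-2.95 ± 0.97), and Sfrp5, a secreted Wnt antagonist (-1.95 ± 0.64). The median of the list was -1.02. The transcription factors of adipocyte differentiation did not pass: Pparg differed by 0.32 ± 0.21 (limma adjusted P = 0.439) and Cebpa by -0.21 ± 0.15 (limma adjusted P = 0.518). On HFD + inulin and on LFD 0 of 14 passed. Against LFD, the inulin diets had 1 of 14 lower at 1.5-fold and P under 0.01, where 0.884% of all probes were. This was Thrsp, at -2.59 ± 0.83 (limma adjusted P = 0.152). The summed signal of the list ran from 27200 to 57200 on HFD and from 25800 to 31500 on HFD + inul PB.

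Genes of lipid uptake and synthesis, which many cells use, changed in part with the members. On HFD + inul PB, 3 of 12 were lower and 1 higher than on HFD at each threshold, though not the same 3. Of all probes, 2.15% were lower at 1.5-fold and P under 0.01 and 3.51% at the adjusted P. The fatty acid receptor Cd36 fell by 2.50 (limma adjusted P = 0.0208), the lipoprotein lipase Lpl by 1.68 (limma adjusted P = 0.0465) and the acyltransferase Agpat2 by 0.46, under 1.5-fold (limma adjusted P = 0.0118), and the gluconeogenic enzyme Pck1 rose by 0.89 (limma adjusted P = 0.0219). Scd1, the fatty acid desaturase, differed by -2.37 and passed at 1.5-fold and P under 0.01 but not after adjustment (limma adjusted P = 0.0524). The lipases that act before and after Lipe did not pass, with Pnpla2 at 0.13 ± 0.13 (limma adjusted P = 0.625) and Mgll at 0.00 ± 0.16 (limma adjusted P = 1). Against LFD, the inulin diets were lower in Scd1 (-2.94 ± 0.64), Fasn (-0.89 ± 0.18), Acaca (-0.60 ± 0.13) and Agpat2 (-0.39 ± 0.09) at an adjusted P under 0.05 in limma. LFD also holds less fat and more corn starch and sucrose, and the part of each in these differences was not tested. LFD differed from HFD by 0.96 ± 0.20 in Fasn (limma adjusted P = 0.599) and 0.44 ± 0.14 in Acaca (limma adjusted P = 0.839). For Scd1 this difference was 0.93 ± 0.72 and for Agpat2 -0.09 ± 0.10. Relative to HFD, Fasn was nearly level, at 0.09 ± 0.19 with plain inulin and 0.04 ± 0.20 with the esters. Acaca differed from HFD by -0.14 ± 0.14 and -0.20 ± 0.14 in the same order. With plain inulin Scd1 differed from HFD by -1.65 ± 0.69 (limma adjusted P = 0.267), and Agpat2 was lower (-0.50 ± 0.10, limma adjusted P = 0.0158).

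Markers of other tissue that could come with fat were read on the same arrays. The mean log2 signal of the 9 members ranged over 7.14 across the 22 arrays, that of the mesothelium, the outer lining of gut and fat, over 3.94, blood 3.77, enteric neuron and glia 3.17, smooth muscle 2.26, lymphoid follicle and lymph node 2.18, adipose stroma 1.78, endothelium 1.47, brown fat 1.24, macrophage 1.15 and cecal epithelium 0.40. HFD replicate 2, the highest array in the members, also had the highest mesothelium mean, 7.85 with 6 of 6 genes well above background, and its mesothelium sum of 2130 compares with a highest of 421 on LFD, 301 on HFD + inul PB and 298 on HFD + inulin. On other arrays mesothelium means lay between 3.91 and 5.64 and 1 or more of the genes were well above background. The part of mesothelium in the diet differences was not tested.

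The genes of the adipose stroma list are not particular to fat. All 5 were well above background on every array, also where Adipoq was not, as on LFD replicate 4 (list mean 10.40). Their deviations had correlations with those of the members from 0.03 (Pdgfra) to 0.53 (Dcn). Summed signals ran from 22600 to 69800 on HFD and 15200 to 37200 on LFD. They ran from 12300 to 46200 for HFD + inulin and from 14000 to 21700 for HFD + inul PB. None of the 5 passed in any of the 5 comparisons in limma, Dcn (-0.81 ± 0.36, adjusted P = 0.217) and Pdgfra (-0.64 ± 0.25, adjusted P = 0.146) being the members of that list under an unadjusted P of 0.05 on HFD + inul PB. Of the brown fat list, the defining genes Ucp1 and Elovl3 were well above background on no array, Dio2 on 5, and Cox8b and Cpt1b, which muscle also makes, on all 22. The deviations of Cox8b had a correlation of 0.74 with those of the members, and its difference on HFD + inul PB was -0.76 ± 0.58 (limma adjusted P = 0.532). Blood and smooth muscle genes passed in none of the comparisons, and their highest arrays, LFD replicate 1 for blood (12.44) and HFD + inul PB replicate 1 for smooth muscle (14.52), were not the highest in the members.

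Some genes of these lists differed after adjustment. On HFD + inul PB against HFD these included the B-cell and follicle genes Cxcr5 (-1.34 ± 0.22) and Cr2 (-1.22 ± 0.35), the endothelial genes Tie1 (-0.87 ± 0.25) and Emcn (-0.84 ± 0.23), the mesothelial Upk1b (-1.71 ± 0.45), Cpt1b (0.64 ± 0.18) of the brown fat list, and the epithelial genes Muc2 (-1.28 ± 0.23) and Slc26a3 (1.21 ± 0.26). Of the macrophage list 1 of 4 was lower before adjustment. Over the arrays, the deviations of Cr2 and Cxcr5 had correlations with those of the members of 0.01 and 0.02. On HFD + inulin the neuronal gene Uchl1 (-2.09 ± 0.51) was lower after adjustment, as was Muc2 (-0.93 ± 0.22), with Slc26a3 higher (1.04 ± 0.25), and against LFD the inulin diets were lower in Muc2 (-0.96 ± 0.20). The part of these cell types in the members' differences was not tested.

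**Figure D4:**
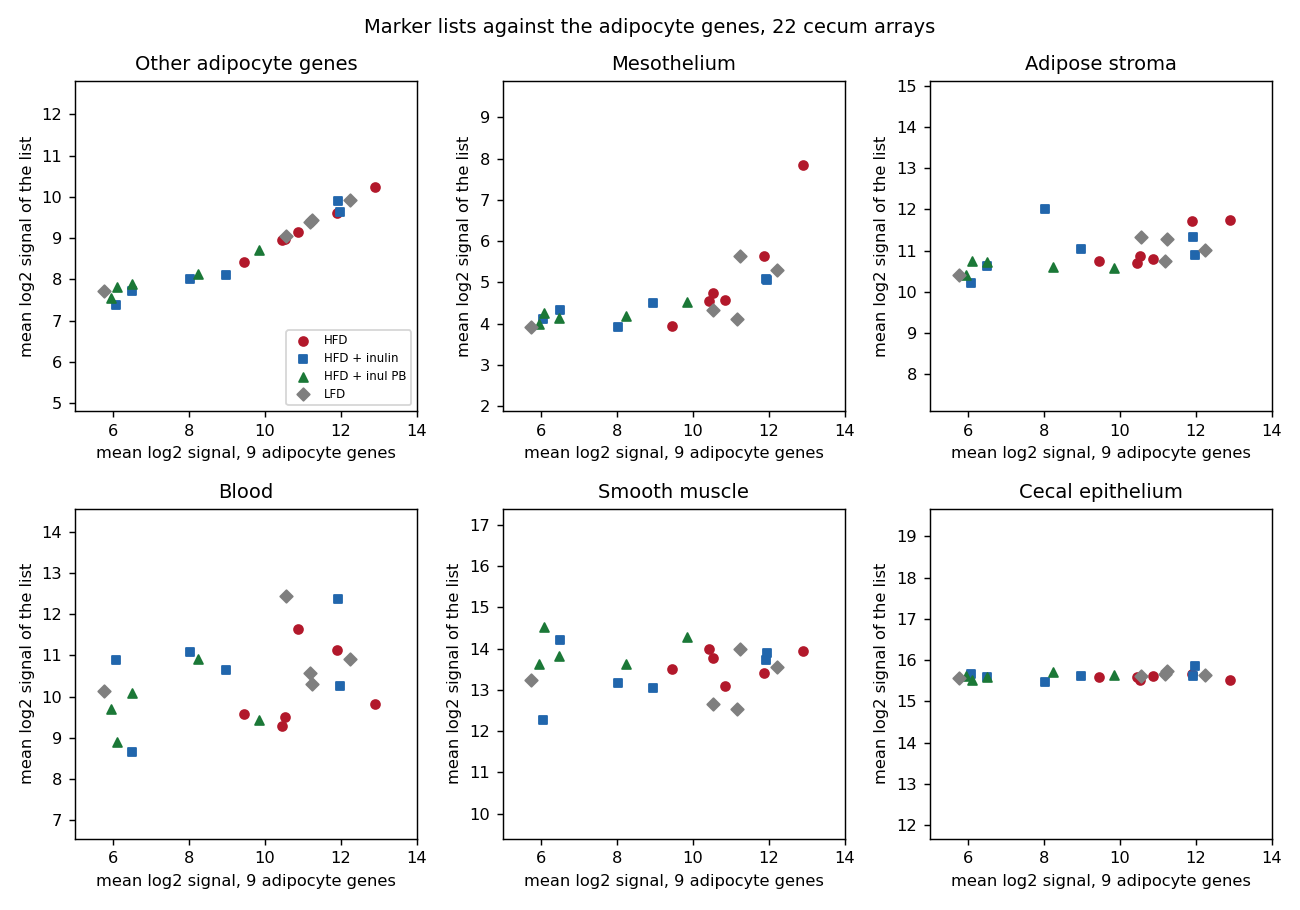
Mean log2 signal of 6 marker lists (y axes, each spanning 8 log2 units) against the mean of the 9 adipocyte genes (x axis) on the 22 cecum arrays, by diet. Other adipocyte genes rise with the members, mesothelium stands out on HFD replicate 2 (7.85), and epithelium stays between 15.47 and 15.87.

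The members were also read in liver, where the labels do not tie arrays to the mice of the cecum arrays. In a joint normalisation of the 46 arrays, Adipoq was well above background on 6 of 24 liver arrays and on 16 of 22 cecum arrays, and Lep on 1 of 24 and 8 of 22. Car3, which hepatocytes make, was between 16.27 and 17.56 in liver and between 7.50 and 14.98 in cecum. Plin4 ran from 7.43 to 10.97 in liver, Fabp4 from 9.81 to 12.23, Lipe from 5.10 to 8.37, Cfd from 3.40 to 12.63, Retn from 3.63 to 8.95 and Plin1 from 2.60 to 6.90. No member differed between diets in liver in limma at 1.5-fold and P under 0.01, where 0.323% of all probes were lower than on HFD with inulin, 0.246% with inul PB and 0.424% with LFD. Plin4 on LFD (-1.17 ± 0.57) was the 1 member under an unadjusted P of 0.05.

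The difference between tissues was tested as an interaction. For HFD + inul PB against HFD, the cecum difference lay below the liver difference at 1.5-fold and P under 0.01 for 4 of 9 members, where it did for 1.78% of all probes, and 0 of 9 after adjustment (1.02% of all probes). These were Fabp4 (-3.18 ± 0.96, limma adjusted P = 0.0718), Plin1 (-5.64 ± 1.71, limma adjusted P = 0.0731), Lep (-2.79 ± 0.90, limma adjusted P = 0.0974) and Car3 (-3.77 ± 1.32, limma adjusted P = 0.141). Lep was well above background on 1 of 24 liver arrays, Plin1 on 5, Adipoq on 6 and Retn on 9, so for these genes a fall in liver could hardly be measured. Adipoq differed by -6.53 ± 2.44 (limma adjusted P = 0.176), Retn by -4.26 ± 1.70 (limma adjusted P = 0.216) and Cfd by -4.53 ± 2.74 (limma adjusted P = 0.516). In the authors' processed values Adipoq and Retn passed as well, 6 of 9 in all, and 0 after adjustment. For HFD + inulin 0 of 9 passed in limma, with 2 under an unadjusted P of 0.05 (1.2% of all probes were lower at 1.5-fold and P under 0.01), and for LFD 0 of 9, with 0 under 0.05 (0.792%).

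**Figure D5:**
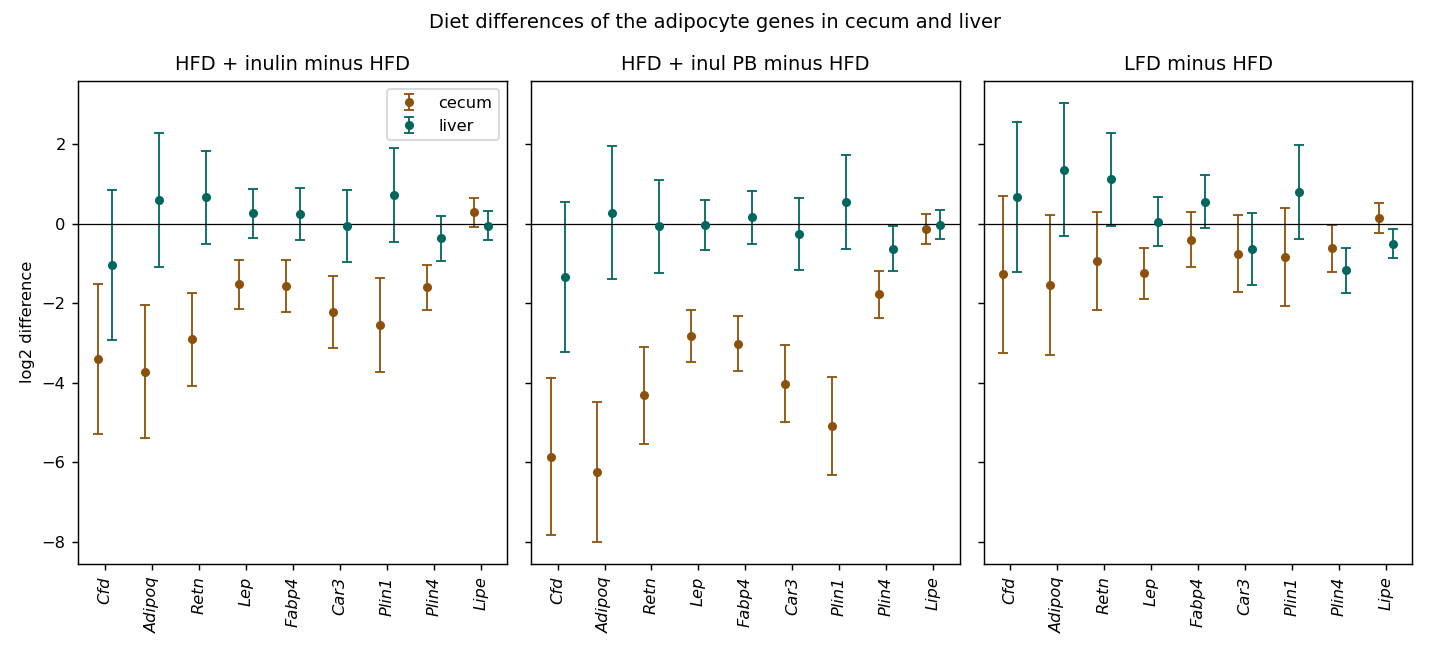
Log2 difference from HFD (y axis, estimate ± SE from the joint fit of 46 arrays) of the 9 adipocyte genes (x axis) in cecum and liver, for LFD, HFD + inulin and HFD + inul PB. Cecum estimates for HFD + inul PB run from -6.24 to -0.13 and liver estimates from -1.33 to 0.55.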

How the data were processed

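The authors deposited, for each array, the spot intensity on a linear scale from Agilent Feature Extraction 10.7.3.1, per the submitters' processing notes, and in it the processed signal has background subtracted but is not normalised between arrays. The authors also deposited log2 values of the same arrays, normalised by cyclic loess and averaged over spots of a probe. The background correction behind those values is not given in the sources used here.

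Diets and replicate numbers came from the sample labels. From the 62976 spots of each cecum array, controls and flagged outlier spots were removed. Processed signals were log2 transformed, cyclic loess (span 0.7) was run over the 22 arrays, and spots of 1 probe were averaged (10 for Lep), leaving 55681 probes. A model with 1 mean per diet was fitted to all probes with limma 3.58.1 in R 4.3.3. A probe passed at a fold over 1.5 with P under 0.01, the thresholds of the study, or at a Benjamini-Hochberg adjusted P under 0.05. Differences of single members were also tested by two-sided exact permutation over arrays. A diet difference between tissues was an interaction term in a fit of all 46 arrays. A probe counts as well above background by the software's own flag, for Lep on at least as many spots as not.

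Each array is a mouse, and labels do not give litters or cages. The members, the comparisons and the 12 marker lists were chosen with earlier results of these data known, all 9 members are named, and of other genes those named are the 3 of the other adipocyte genes with the largest difference, list genes called after adjustment, and the 10 most alike over arrays, with Sfrp5, Pparg, Cebpa, Thrsp, Pnpla2, Mgll, Dcn and Pdgfra named after their values were seen. Some list genes called after adjustment are not reported here. The tests were tried on simulated data. Alternatives were other normalisations, background corrections, filters, samples, blocks and probes, the authors' table, and leaving out each array, with the joint fit of both tissues added after seeing the data. Probe sequences were not used here, and motifs were searched in RefSeq promoter windows.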

Additional observations from a re-analysis of the deposited data

Results flagged for a closer look

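Of 72 groups of 5 or 6 arrays examined (9 genes, 4 diets, cecum and liver), 16 had 1 array set apart from the rest. Chance gives about 1 in 20 for independent groups. The genes share their arrays and moved together, so the same array was counted several times and the 2 figures cannot be compared. In cecum LFD, replicate 4 stood below the others in Cfd (3.36), Adipoq (2.50), Plin1 (2.30), Retn (4.60) and Car3 (7.65). In cecum HFD + inul PB, replicate 4 stood above the others in Fabp4 (12.81). In liver HFD + inul PB, replicate 4 was the high array in Cfd (12.42), Adipoq (9.35), Plin1 (6.90), Fabp4 (12.19) and Retn (8.95). In liver HFD, replicate 3 was the high array in Adipoq (7.92) and Plin1 (5.77). In liver HFD + inulin, replicate 4 was the high array in Plin1 (6.69) and Fabp4 (12.18), and replicate 5 in Lep (5.37). The rule looks for 1 array set apart from the rest, so it did not flag liver LFD, where replicates 3 and 4 were both high. They read 9.36 and 8.90 in Adipoq and 8.82 and 8.22 in Retn. Liver arrays thus also held samples with several adipocyte genes raised together, and no cause of this was tested.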

How the results depend on the processing

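For HFD + inul PB against HFD, the 6 members called at 1.5-fold and P under 0.01 were 3 with a replicate block and ranged from 1 to 7 with 1 array left out. The 2 called at an adjusted P were 1 with 75th percentile scaling or quantile normalisation, 5 with only probes well above background (8 members left, without Lep), 7 with only the diets compared, 0 with the replicate block and 6 in the joint fit of 46 arrays, and ranged from 0 to 6 with 1 array left out. Same-numbered arrays of different diets had a median correlation of 0.058 (from -0.162 to 0.252), and differently numbered ones -0.02 (from -0.29 to 0.231). These values do not settle whether replicate numbers pair the arrays. Under the block no other count of calls changed. For HFD + inulin against HFD, 0 calls became 1 in the joint fit and 0 to 1 with 1 array left out. For both inulin diets against LFD, 0 became 2 in the joint fit and 0 to 6 with 1 array left out. The share of all probes called in each of these fits is not given here, so the counts have no background beside them.

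With 1 array left out, LFD minus HFD ranged from -2.11 to 1.01 for Cfd, -2.25 to 0.38 for Adipoq, -1.42 to 0.68 for Plin1, -0.79 to 0.30 for Fabp4, -1.47 to 0.35 for Retn, -1.27 to 0.45 for Car3 and -0.04 to 0.38 for Lipe. Lipe ranged from -0.31 to 0.11 for HFD + inul PB minus HFD and from -0.19 to 0.11 for the inulin diets minus LFD, and Plin4 from -0.68 to 0.23 for HFD + inul PB minus HFD + inulin. The ratio to Adipoq for LFD minus HFD ranged from -0.65 to 1.34 for Plin4, -0.08 to 1.46 for Fabp4, -1.04 to 0.76 for Lep, -0.03 to 0.81 for Retn and -0.09 to 2.27 for Lipe. The Cfd ratio turned to -0.29 (normexp background correction) and -0.20 (the authors' values) for HFD + inulin minus HFD, to -0.64 and -0.56 for HFD + inul PB minus HFD, and to -0.35 and -0.36 for HFD + inul PB minus HFD + inulin, where leaving out 1 array gave -0.33 to 0.41. In that last comparison the Plin1 ratio was 0.45 and 0.37 under these settings, and -0.37 to 0.42 with 1 array left out. The causes were not tested. None of the 54 recomputed tissue differences changed direction or its side of an adjusted P of 0.05, but at 1.5-fold and P under 0.01 the 4 lower members for HFD + inul PB were 6 in the authors' values. Where Adipoq was not above background, its signal limits every ratio, and 5 or 6 arrays a diet limit the tests.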

Other observations

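The probes that spread more within diets than Cfd were led by alpha-defensin genes of Paneth cells, such as Defa3 (within-diet SD 4.81) and Defa32 (4.72), and also held Reg3b (4.02), an antimicrobial lectin of the epithelium. Their arrays were not set against those of the adipocyte genes.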
